A study of Mus musculus with 99 samples.

Results

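The haem synthesis and breakdown genes described here are Alad, Alas1, Uros, Urod, Cpox, Ppox, Fech, Hmox1 and Blvrb, listed by name and taken with every probe set that the array annotation assigns to them alone. They are 9 of the 11725 genes with a probe set of 1 symbol and hold 13 of the 22327 non-control probe sets. They were measured in hearts of untreated male mice on a chow diet, aged 16 weeks by the protocol in the labels, with 1 Affymetrix HT_MG-430A array per strain and 99 arrays in all, in a series on the genetics of expression across inbred strains. The recombinant inbred panels are 11 BXH strains (parents C3H/HeJ and C57BL/6J), 30 BXD strains (DBA/2J and C57BL/6J), and the reciprocal panels AXB (15 strains) and BXA (13 strains), whose parents are A/J and C57BL/6J. The remaining arrays are 28 classical inbred strains, among them the 4 parents, the wild-derived strain CAST/EiJ and B6cC3-1/KccJ. A recombinant inbred strain is homozygous for a mosaic of its parents' alleles, so all panels share C57BL/6J alleles. Several strains carry a further named mutation (BXD29-Tlr4<lps-2J>/J and BXD24/TyJ-Cep290<rd16>/J). AXB19/PgnJ, AXB19a/PgnJ and AXB19b/PgnJ were averaged to 1 family, as were BXD24/TyJ and BXD24/TyJ-Cep290<rd16>/J, leaving 29 families of BXD and 13 of AXB. Each strain had a single array, and every error is therefore the spread between strains, technical spread included.

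Values are log2 RMA values, in which 1 unit is a doubling of signal and values near 3 lie at the floor of the array. Levels of different probe sets are not compared, since probes differ in brightness. The heart markers were present on all arrays: Myl2, the ventricular myosin light chain, ranged from 13.39 to 13.65 and Tnni3, cardiac troponin I, from 12.79 to 13.11. On 39 arrays the mean of at least 1 list of airway, liver, squamous, fast muscle, thymus or thyroid genes lay more than 2 log2 units above its median over arrays (8 of 11 BXH, 10 of 30 BXD, 10 of 28 AXB and BXA arrays by panel, 10 of the 28 classical strains, and CAST/EiJ). The sample titles are bare numbers with no stated meaning, and those of BXH (3 to 394) lie below those of BXD, AXB and BXA (473 to 683), so title number and panel cannot be told apart in the BXH comparisons.

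Haem is built from glycine and succinyl-CoA. Aminolevulinate synthase makes the first intermediate in mitochondria, cytosolic enzymes assemble and trim the porphyrin ring, and mitochondrial enzymes oxidise it and insert iron. Haem oxygenase opens the ring to biliverdin, carbon monoxide and iron, and biliverdin reductases make bilirubin. The heart needs haem for myoglobin and for the cytochromes of the respiratory chain, and blood left in the tissue adds transcripts of developing red cells.

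Alad encodes aminolevulinate dehydratase, the cytosolic enzyme that joins aminolevulinate molecules into porphobilinogen. Its gene is known to vary in copy number between inbred mouse strains. Copy number was not measured here. The 250 bases before the outermost annotated Alad start are shown because Alad splits most sharply of the 9 genes and its neighbours are described beside it. They lie at chr4:62520064-62520313 on the minus strand of GRCm38.p6 in RefSeq's table, and the capitals mark matches on either strand to the core of the GC box (GGGCGG) and to the E box, a motif bound by clock and other helix-loop-helix factors (CACGTG).
Alad: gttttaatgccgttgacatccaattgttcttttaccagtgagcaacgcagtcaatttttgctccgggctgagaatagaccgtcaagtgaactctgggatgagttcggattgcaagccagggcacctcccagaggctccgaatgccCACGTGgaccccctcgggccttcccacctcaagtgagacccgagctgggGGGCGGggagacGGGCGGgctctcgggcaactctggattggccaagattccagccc
The window held 2 matches to the GC box core and 1 to the E box. Of 32851 promoter windows of this length, 32.7% held the GC box core, 6.02% the E box and 9.99% a GATA motif (AGATAA), which was searched on both strands and has no match in this window. Windows were matched for 7 of the 9 genes (11 windows), of which 6 held the GC box core (5 genes), 4 the E box (Alad, Urod and Uros) and 0 the GATA motif. Windows of 1 gene can overlap. A match is a description of these letters only, and the reference sequence does not show the alleles of the other strains.

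The parents differed at Alad by more than 1.5 log2 units in each cross. The single arrays gave 9.48 in C3H/HeJ, 9.24 in DBA/2J and 8.92 in A/J, against 7.37 in C57BL/6J. The differences from C57BL/6J were 2.11 in C3H/HeJ, 1.87 in DBA/2J and 1.55 in A/J, each larger in size than those of at least 99.4% of probe sets in that pair. With 1 array per parent these differences have no replicate check.

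Alad fell into separate ranges in each panel. In BXH, 7 of 11 strains lay above the parental midpoint, from 8.99 to 9.67, and 4 below it, from 7.15 to 7.62. In BXD, 5 of 29 families lay above, from 8.90 to 9.62, and 24 below, from 7.12 to 8.09. The high BXD families were BXD13/TyJ (8.90), BXD24/TyJ-Cep290<rd16>/J (9.22) with BXD24/TyJ (9.31), BXD15/TyJ (9.30), BXD1/TyJ (9.33) and BXD36/TyJ (9.62), and BXD39/TyJ (8.09) was the highest of the rest. In AXB and BXA, 13 of 26 families lay above, from 8.94 to 9.49, and 13 below, from 6.83 to 7.75. AXB had 5 of the high families (AXB5/PgnJ, AXB2/PgnJ, AXB6/PgnJ, AXB13/PgnJ and AXB8/PgnJ) and BXA had 8 (BXA12/PgnJ, BXA26/PgnJ, BXA16/PgnJ, BXA7/PgnJ, BXA4/PgnJ, BXA25/PgnJ, BXA2/PgnJ and BXA13/PgnJ). Near-isogenic strains fell on the same side, with 6.88 in AXB19/PgnJ, 7.50 in AXB19a/PgnJ and 7.36 in AXB19b/PgnJ.

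**Figure D1:**
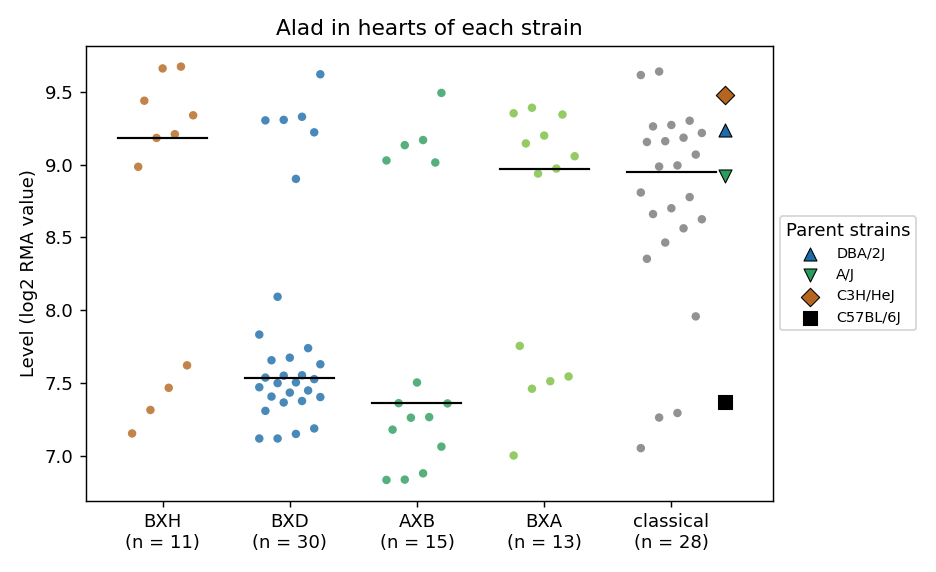
Alad level (log2 RMA value) of each array, by panel, with the panel median as a line and the 4 parents as larger symbols beside the classical strains. No BXH array lies between 7.62 and 8.99, no BXD array between 8.09 and 8.90, and no AXB or BXA array between 7.75 and 8.94.

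The empty interval in the sorted Alad values was 1.36 log2 units wide in BXH, 0.81 in BXD and 1.18 in AXB and BXA. An interval of at least 0.5 with 3 or more families on each side occurred in 1.42% of probe sets in BXH, 0.735% in BXD and 1.18% in AXB with BXA, and in 1.53% over the classical strains. The share of families above the midpoint was 63.6% in BXH (exact 95% binomial interval 30.8% to 89.1%), 17.2% in BXD (5.85% to 35.8%) and 50.0% in AXB and BXA (29.9% to 70.1%). These intervals cover sampling of families only.

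Among the 28 classical strains Alad had a lowest value of 7.05 (KK/HlJ), a median of 8.95 and a highest value of 9.64 (C57L/J). KK/HlJ, BTBR T<+> tf/J (7.26), SM/J (7.29) and C57BL/6J (7.37) formed the low end, BUB/BnJ stood at 7.96 and 129X1/SvJ at 8.35. The other 22 strains ran on from 8.46 (LP/J) in small steps. C57L/J, from the same C57 stock as C57BL/6J, stood at the other end of the range, and C58/J had 8.70. The SD of Alad over strains lay at the 98.2nd percentile of all probe sets in the classical strains and at the 99.3rd, 98.7th and 99.2nd in BXH, BXD and AXB with BXA.

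The panel means of Alad were not called different. Alad averaged 8.64 ± 1.02 in BXH (SD, n = 11), 7.79 ± 0.73 in BXD (SD, n = 29) and 8.21 ± 1.00 in AXB and BXA (SD, n = 26). BXH minus BXD was 0.85 (SE 0.28, limma adjusted p = 0.0637), BXD minus AXB and BXA was -0.42 (SE 0.23, limma adjusted p = 0.302) and BXH minus AXB and BXA was 0.43 (SE 0.35, limma adjusted p = 0.635). AXB averaged 7.91 ± 1.05 and BXA 8.51 ± 0.90 (SD, n = 13 each), a difference of -0.60 (SE 0.36, limma adjusted p = 0.638). A mean over values in separate ranges mainly counts the families in each. The difference of BXH from BXD passed the threshold when dim probe sets were left out (adjusted p = 0.0432), with the brightest probe set per gene (adjusted p = 0.0413) and with the Gapdh covariate, the difference between the 3′ and 5′ Gapdh control probe sets (1.15, adjusted p = 0.0153).

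Genes next to Alad were taken from the RefSeq gene order, 6 measured genes on each side. Hdhd3, which encodes a hydrolase-fold protein and is the adjacent gene, was the only one of the 12 with a positive rho with Alad in all 4 sets of strains. This Spearman rho, given as a measure of likeness with no test because Alad falls into separate ranges, was 0.72 in BXH (n = 11), 0.32 in BXD (n = 29), 0.79 in AXB and BXA (n = 26) and 0.66 in the classical strains (n = 28). In AXB and BXA this was the highest absolute rho of all 11724 other genes. Hdhd3 lay close to the floor, with a mean level of 3.40. Its parental differences from C57BL/6J were 0.33 in C3H/HeJ, 0.18 in DBA/2J and 0.42 in A/J.

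**Figure D2:**
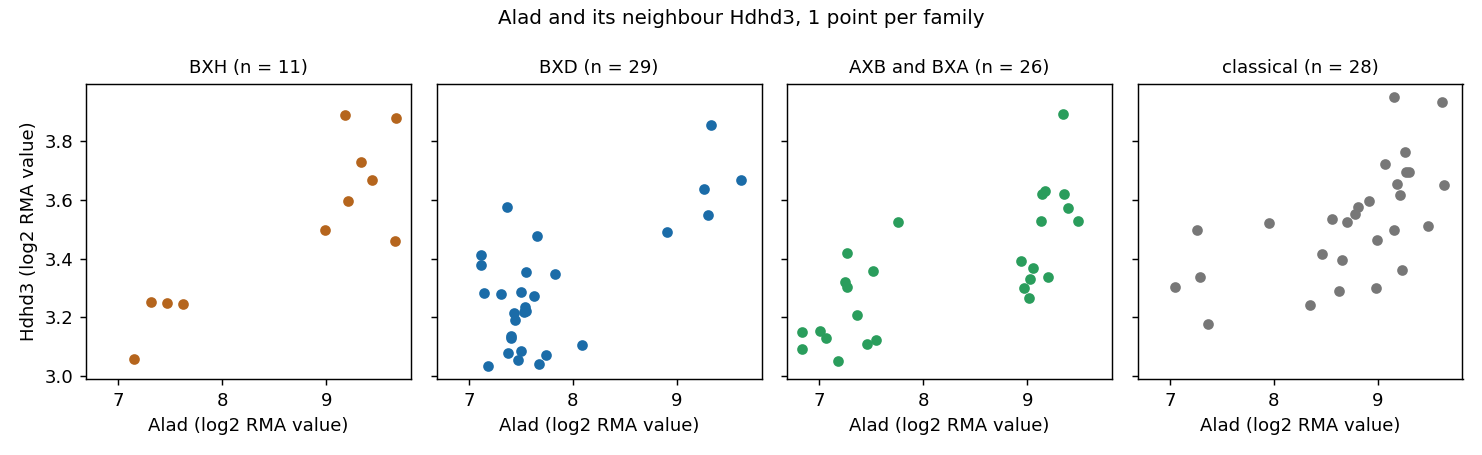
Level of Hdhd3 against that of Alad (both log2 RMA values), 1 point per family or strain, in 4 panels of strains. Spearman rho is positive in each set, from 0.32 to 0.79, and Hdhd3 varies near the floor.

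Cdc26, a small subunit of the anaphase-promoting complex, was the only neighbour with a negative rho in all 4 sets, with -0.39 in BXH, -0.26 in BXD, -0.67 in AXB and BXA (second of all genes by absolute rho) and -0.38 in the classical strains. Its difference from C57BL/6J was -0.17 in C3H/HeJ, -0.52 in DBA/2J and -0.31 in A/J. Pole3, a DNA polymerase epsilon subunit and the neighbour on the other side, had a rho of 0.58, 0.17 and 0.44 in these panels in the same order and -0.39 in the classical strains. Other neighbours had larger negative values in single sets. Slc31a1, the copper importer, had -0.76 and Wdr31 -0.60 in BXH, Rnf183 had -0.33 in BXD, and Kif12, a kinesin, had -0.65 in the classical strains. Of the 12 neighbours, 2 were called in BXD against AXB and BXA, where 7.48% of all probe sets were called in either direction. None was called in the other comparisons. Rgs3, a regulator of G-protein signalling, averaged 5.95 in BXD and 5.71 in AXB and BXA (difference 0.23, SE 0.07, limma adjusted p = 0.0305). Slc31a1 averaged 5.19 in BXD and 5.45 in AXB and BXA (difference -0.26, SE 0.07, limma adjusted p = 0.0124).

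The genes most like Alad by absolute rho were not its neighbours in every set. Over the 29 BXD families they were Apeh (0.72), Stx18 (-0.70), Cnppd1 (-0.70), Etf1 (-0.68) and Cdkn2d (-0.67), none on chromosome 4. Over the 28 classical strains they were Azi2 (-0.79), S1pr1 (-0.73), Sync (0.72), Trp53inp1 (-0.69) and Tmsb4x (0.68), of which Sync and Trp53inp1 lie on chromosome 4. No gene stood in both lists.

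Hmox1 encodes the inducible haem oxygenase, which opens the haem ring. It had the widest range of the 9 genes, 4.06 log2 units over all arrays. Among the parents it was 4.64 in C3H/HeJ, 5.53 in DBA/2J and 3.67 in A/J, against 7.04 in C57BL/6J, the highest classical strain. The differences from C57BL/6J were -2.40, -1.51 and -3.37 in that order. FVB/NJ was the lowest classical strain at 3.43, the median was 4.70, and LP/J was second highest at 6.02.

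Few families lay on the side of C57BL/6J. In BXH, 2 of 11 strains lay above the parental midpoint, BXH19/TyJ (7.02) and BXH20/KccJ (6.14). In BXD, 5 of 29 families did, BXD11/TyJ (7.49), BXD27/TyJ (7.47), BXD8/TyJ (6.96), BXD28/TyJ (6.72) and BXD18/TyJ (6.58). In AXB and BXA only AXB1/PgnJ did (6.60, 1 of 26), and the next was BXA12/PgnJ at 5.11.

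The test between panels called Hmox1 in 1 of 4 comparisons. BXD hearts had a lowest value of 3.57, a median of 5.25 and a highest of 7.49, against 3.45, 4.30 and 6.60 in AXB and BXA. The ranges overlapped, and 24 of 29 BXD families lay above the AXB and BXA median. Hmox1 averaged 5.29 ± 1.06 in BXD (SD, n = 29) and 4.37 ± 0.66 in AXB and BXA (SD, n = 26), so it was 1.88-fold higher in BXD (log2 difference 0.91, SE 0.23, limma adjusted p = 0.00855). The BXD values of Hmox1 fall into separate ranges, so their mean depends in part on how many families lie in each. Hmox1 was the only 1 of the 13 member probe sets called in this comparison, in which 7.48% of all probe sets were called in either direction and 3.93% called higher. The Gapdh difference, a measure of RNA integrity, averaged -0.22 in BXD and -0.31 in AXB and BXA, and with it as a covariate the Hmox1 difference was 0.98 (adjusted p = 0.0295). Without the arrays with another organ's genes it was 0.75 (adjusted p = 0.108), among the lower title numbers 1.04 (adjusted p = 0.0867) and among the upper ones 0.79 (adjusted p = 0.241).

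BXH averaged 5.05 ± 0.87 (SD, n = 11), which was 0.68 above AXB and BXA (SE 0.25, limma adjusted p = 0.147) and -0.23 relative to BXD (SE 0.35, limma adjusted p = 0.806). Of the 13 member probe sets, 0 were called for BXH against AXB and BXA, in which 3.01% of all probe sets were called. An unadjusted p under 0.05 was found for 3 of the 13, beside 3284 of all 22327 probe sets. Of these 3, Hmox1 and Blvrb (0.20, limma adjusted p = 0.100) had positive differences and Uros a negative one (-0.15, limma adjusted p = 0.267).

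**Figure D3:**
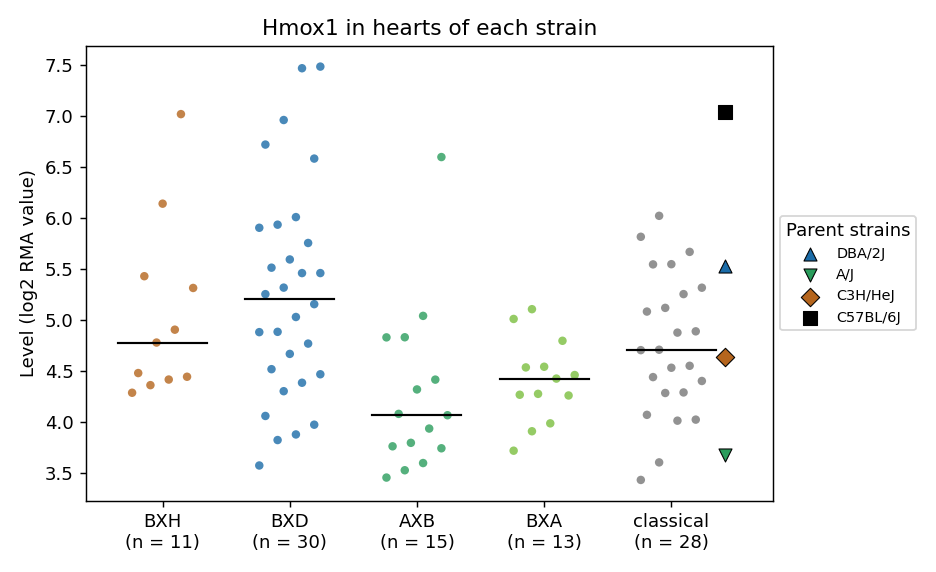
Hmox1 level (log2 RMA value) of each array, by panel, with the panel median as a line and the 4 parents as larger symbols beside the classical strains. C57BL/6J (7.04) lies above all other classical strains, 5 BXD families lie between 6.58 and 7.49, and AXB1/PgnJ (6.60) stands alone in AXB and BXA.

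Haem oxygenase is abundant in macrophages that take up red cells, so the macrophage list was set beside it. The mean of 14 of its 16 genes ranged from 5.77 to 6.59 in BXH, from 4.88 to 6.02 in BXD and from 5.14 to 6.17 in AXB and BXA arrays. Of these genes, 9 were called higher in BXH than in BXD, 9 higher in BXH than in AXB and BXA, and 1 (F13a1, 0.38) higher in BXD than in AXB and BXA. Of all 22327 probe sets, 538, 332 and 878 were called higher in these comparisons, in that order. Title number and panel cannot be told apart in the BXH comparisons. Over the 26 AXB and BXA families Hmox1 and the list mean had a Pearson r of 0.61 (permutation adjusted p = 0.0145) and a Spearman rho of 0.52 (permutation adjusted p = 0.0932), and without AXB1/PgnJ and BXA11/PgnJ r was 0.41 (adjusted p = 0.360). Over the 28 classical strains r was 0.22 (permutation adjusted p = 0.492) and rho 0.16. The part of macrophages in the Hmox1 values was not tested. Fewer cells of a type and less RNA per cell cannot be told apart in whole hearts. Nqo1, another antioxidant response gene, had an r with Hmox1 of -0.29 in the classical strains and 0.15 in AXB and BXA, neither called.

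The genes most like Hmox1 were chosen after its values were seen. In BXD they were Rnf207 (-0.79), the metallothionein Mt1 (0.78) and the lysosomal protease Ctsl (0.75, n = 29). In AXB and BXA they were Gclm, a subunit of the rate-limiting enzyme of glutathione synthesis (0.82), the lysosomal enzyme Hexa (0.74) and the transcription factor Cebpd (0.71, n = 26).

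Fech encodes ferrochelatase, which inserts iron into protoporphyrin and completes haem. It had 4 probe sets, with mean levels of 9.09 (1418699_s_at), 7.33 (1449181_at), 7.10 (1418698_a_at) and 3.34 (1427696_at, at the floor). The highest values of the first 3 among all strains were all in NON/ShiLtJ, at 10.45, 7.81 and 8.61.

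Fech followed the erythroid list. Its 10 measured genes of 16 include Hba-a1, the alpha globin (12.43 to 13.52 over arrays), Alas2, the erythroid aminolevulinate synthase (6.24 to 10.49), Slc4a1 (3.07 to 7.39) and Bpgm (6.55 to 10.31). The others lay near the floor. Klf1 and Gata1, transcription factors of red cell precursors, stayed at or below 3.78, and Epb42, Rhag, Car1 and Epor at or below 3.88. Alas2, itself a haem synthesis gene, had an r with the list mean of 0.92 in BXD, 0.94 in AXB with BXA and 0.93 in the classical strains. Alas2 is part of that mean, so these values are in part those of a gene with itself. With the list mean, 1418699_s_at had a Pearson r of 0.84 in BXD (rho 0.61, n = 29), 0.79 in AXB and BXA (rho 0.71, n = 26) and 0.82 in the classical strains (rho 0.64, n = 28). The permutation adjusted p of r was 0.00031 in BXD and in the classical strains and 0.000413 in AXB and BXA, over the 62 relations computed here. That of rho was 0.0126 in BXD, 0.00775 in the classical strains and 0.00558 in AXB and BXA. Without the 2 strains farthest from the median list value, r was 0.65, 0.72 and 0.72 in BXD, AXB with BXA and the classical strains. Within the lower and the upper title numbers it was 0.88 and 0.81 in BXD, 0.87 and 0.78 in AXB with BXA, and 0.70 and 0.90 in the classical strains. The permutation adjusted p in the lower and upper numbers was 0.00186 and 0.110 in BXD and in AXB with BXA. In the classical strains it was 0.0891 and 0.0093. These were 3 of the 5 relations called by r, and 4 were called by rho, of which the fourth was Blvrb in the classical strains.

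**Figure D4:**
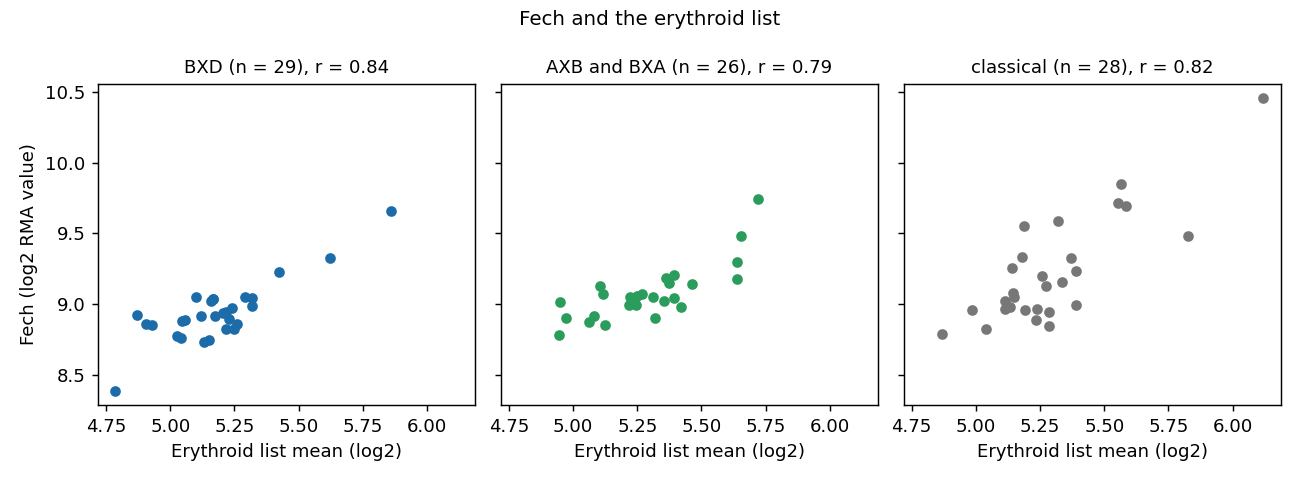
Fech (1418699_s_at, log2 RMA value) against the mean of the erythroid list (log2), 1 point per family or strain, with Pearson r above each plot. Fech rises with the list in each set, with r from 0.79 to 0.84, and NON/ShiLtJ is the point at 10.45.

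The Fech probe sets differed in this. 1418698_a_at had an r with the list of 0.58 in BXD and 0.67 in AXB with BXA, and reached 0.74 in the classical strains. 1449181_at had 0.40, 0.17 and 0.22, described only. The differences between parents also depended on the probe set. On the single arrays 1449181_at was lower than in C57BL/6J (7.81), with differences of -0.81 in C3H/HeJ, -1.01 in DBA/2J and -0.45 in A/J. 1418699_s_at was 8.96 in C3H/HeJ, 9.02 in DBA/2J and 9.26 in A/J, against 8.96 in C57BL/6J. 1418698_a_at was 7.03 in C3H/HeJ, 6.70 in DBA/2J and 7.13 in A/J, against 7.14 in C57BL/6J. Sequence differences between strains under these probes were not examined. For 1449181_at, 0 of 29 BXD families lay outside the parental interval from 6.80 to 7.81, and 14 lay above its midpoint. For 1418699_s_at, 18 BXD families lay below the lower parent and 8 above the higher one.

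In BXH against BXD, 3 of the 13 member probe sets were called, all higher in BXH, where 5.07% of all probe sets were called in either direction and 2.41% called higher. They were 2 of Fech and that of Blvrb. 1418698_a_at ran from 7.09 through a median of 7.21 to 7.53 in BXH, against 6.36, 6.96 and 7.48 in BXD. The ranges overlapped, and 11 of 11 BXH strains lay above the BXD median. It averaged 7.25 ± 0.15 in BXH (SD, n = 11) and 6.94 ± 0.25 in BXD (SD, n = 29), a log2 difference of 0.32 (SE 0.08, limma adjusted p = 0.0116). 1418699_s_at averaged 9.22 ± 0.27 in BXH and 8.94 ± 0.22 in BXD, a difference of 0.27 (SE 0.08, limma adjusted p = 0.0366). The mean of the erythroid list ranged from 4.88 to 5.85 in BXH (mean 5.42) and from 4.78 to 5.86 in BXD (mean 5.18), and 0 of its 10 genes were called. With the list as a covariate these Fech differences were 0.18 (adjusted p = 0.152) and 0.08 (adjusted p = 0.446), with the Gapdh covariate 0.26 and 0.28 (adjusted p = 0.0792 for both) and among the lower title numbers 0.36 and 0.30 (adjusted p = 0.0681 and 0.246). The lower title numbers include all BXH arrays, so that last fit dropped only BXD arrays and cannot separate title number from panel.

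In BXD against AXB and BXA, all 4 Fech probe sets had an unadjusted p under 0.05 and none was called. 1418698_a_at averaged 6.94 ± 0.25 in BXD and 7.13 ± 0.24 in AXB and BXA (difference -0.19, SE 0.06, limma adjusted p = 0.0547). 1449181_at averaged 7.33 ± 0.19 in BXD and 7.47 ± 0.15 in AXB and BXA (difference -0.13, SE 0.05, limma adjusted p = 0.0601). With dim probe sets left out, both passed the threshold (adjusted p = 0.0373 and 0.0427). So did 1418698_a_at with every array as its own value (-0.21) and 1449181_at without the arrays with another organ's genes (-0.17). Neither passed it in the other fits, which include the erythroid covariate, the Gapdh covariate and the lower and upper title numbers. The erythroid list averaged 5.18 in BXD arrays and 5.30 in AXB and BXA arrays.

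Blvrb encodes biliverdin reductase B, also known as flavin reductase and abundant in red cells. It ran from 5.44 through a median of 5.88 to 6.25 in BXH, against 5.31, 5.54 and 6.04 in BXD. The ranges overlapped, and 9 of 11 BXH strains lay above the BXD median. Blvrb averaged 5.82 ± 0.25 in BXH (SD, n = 11) and 5.57 ± 0.16 in BXD (SD, n = 29), a difference of 0.25 (SE 0.07, limma adjusted p = 0.0181). With the erythroid list as a covariate it was 0.19 (adjusted p = 0.117), and among the lower title numbers, with only BXD arrays dropped, 0.28 (adjusted p = 0.150). The classical strains spread further, from 5.21 (RIIIS/J) to 7.15 (C57L/J). C57L/J, LP/J (6.87), 129X1/SvJ (6.76), BTBR T<+> tf/J (6.66), NON/ShiLtJ (6.52) and NZW/LacJ (6.49) stood above the rest, of which CE/J was highest at 6.15. With the erythroid list Blvrb had an r of 0.51 (permutation adjusted p = 0.0610) and a rho of 0.55 (permutation adjusted p = 0.0412) in the classical strains, and r was 0.26 without NON/ShiLtJ and C57L/J.

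Alas1 encodes the aminolevulinate synthase of non-erythroid tissues, the rate-limiting enzyme of haem synthesis. Over all arrays it ran from 8.06 (NZW/LacJ) to 9.98 (BXD9/TyJ). The parents gave 8.46 in C3H/HeJ, 8.69 in DBA/2J and 8.84 in A/J, against 8.39 in C57BL/6J. It averaged 8.83 ± 0.40 in BXH (SD, n = 11), 8.71 ± 0.39 in BXD (SD, n = 29) and 8.83 ± 0.31 in AXB and BXA (SD, n = 26), and limma adjusted p in the 4 comparisons lay between 0.504 and 0.995. BXA11/PgnJ (9.94) stood above the next BXA strain, BXA8/PgnJ (9.23). Alas1 is under circadian control in liver. Of 11 measured clock genes, 4 (Per3, Per1, Tef and Nr1d2) were called lower in BXH than in BXD, beside 595 of all 22327 probe sets. Against AXB and BXA, 3 (Per1, Per2 and Nr1d2) were called lower in BXH, beside 341 of 22327. Title number and panel cannot be told apart in these comparisons. Of the 12 relations of Alas1 to Dbp, Nr1d2, Arntl and Npas2, 0 were called. Npas2, a clock activator that pairs with Arntl, had an r of -0.37 in BXD, -0.30 in AXB with BXA and -0.43 over the classical strains (permutation adjusted p = 0.199, 0.451 and 0.134).

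Uros, uroporphyrinogen III synthase, closes the porphyrin ring. The parents gave 6.42 in C3H/HeJ, 6.78 in DBA/2J and 7.27 in A/J, against 6.93 in C57BL/6J. In the classical strains SWR/J (6.21), NZW/LacJ (6.35), C3H/HeJ (6.42) and C58/J (6.46) were lowest, KK/HlJ followed at 6.66, and AKR/J was highest (7.33). Uros averaged 6.78 ± 0.22 in BXH, 6.90 ± 0.18 in BXD and 6.94 ± 0.18 in AXB and BXA, with no comparison called. In BXD it had an r of -0.56 (permutation adjusted p = 0.0145, n = 29) and a rho of -0.45 (permutation adjusted p = 0.120) with the Gapdh 3′ minus 5′ difference and an r of -0.49 without BXD11/TyJ and BXD38/TyJ (adjusted p = 0.118). That difference averaged -0.31 in BXH, -0.22 in BXD and -0.31 in AXB and BXA.

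Urod, uroporphyrinogen decarboxylase, varied least. It spanned 0.60 log2 units over all arrays, from 7.43 (BXA11/PgnJ) to 8.03 (BXD15/TyJ), and its SD in the classical strains (0.10) lay at the 4.17th percentile of probe sets. The panel means were 7.68 ± 0.10 in BXH, 7.72 ± 0.11 in BXD and 7.69 ± 0.15 in AXB and BXA. The interval of 2 SE either side of the difference of BXD from AXB and BXA was -0.04 to 0.10, and that of BXH from BXD was -0.12 to 0.04.

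Cpox and Ppox are the oxidases that act before ferrochelatase. Cpox, coproporphyrinogen oxidase, had mean levels of 4.62 (1422493_at) and 3.54 (1422492_at, near the floor). 1422493_at averaged 4.58 ± 0.17 in BXH, 4.68 ± 0.27 in BXD and 4.70 ± 0.24 in AXB and BXA. The parents gave 4.71 in C3H/HeJ, 4.61 in DBA/2J and 4.22 in A/J, against 4.62 in C57BL/6J, and 25 of 26 AXB and BXA families lay above the midpoint of A/J and C57BL/6J. Ppox, protoporphyrinogen oxidase, had one of the larger spreads, with an SD at the 94.9th percentile in BXH and in BXD, the 94.8th in AXB and BXA and the 91.0th in the classical strains. Ppox was 4.68 in C3H/HeJ, 4.62 in DBA/2J and 4.37 in A/J, against 5.04 in C57BL/6J. It averaged 4.89 ± 0.44 in BXH, 4.92 ± 0.42 in BXD and 4.72 ± 0.39 in AXB and BXA, with limma adjusted p of 0.302 or more.

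**Figure D5:**
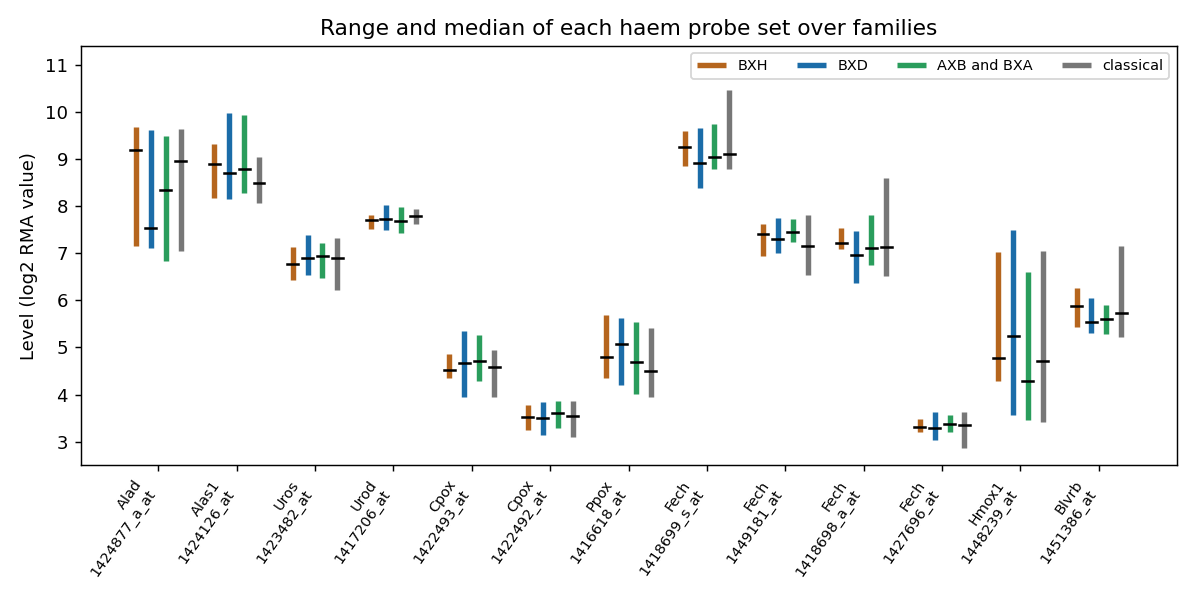
Lowest to highest value (bars) and median (black line) of each of the 13 probe sets over families (log2 RMA value), for BXH, BXD, AXB with BXA and the classical strains. Alad and Hmox1 have the longest bars, Urod short ones, and 1427696_at of Fech and 1422492_at of Cpox lie between 2.87 and 3.85.

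For AXB against BXA, 0 of the 13 probe sets were called by limma, 0 had an unadjusted p under 0.05, and 0.0% of all probe sets were called (2008 with an unadjusted p under 0.05). The median difference of the 13 was -0.08 for BXD minus AXB and BXA, 0.00 for BXH minus AXB and BXA, 0.04 for BXH minus BXD and -0.05 for AXB minus BXA, beside medians over all probe sets between -0.01 and 0.00. The comparisons share panels and are not independent.

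Of the paralogs, Blvra, the main biliverdin reductase of adult tissues, was called in 2 comparisons. It averaged 6.79 ± 0.31 in BXD and 6.49 ± 0.18 in AXB and BXA (difference 0.29, SE 0.07, limma adjusted p = 0.00332), and 6.73 ± 0.24 in BXH, 0.24 above AXB and BXA (SE 0.07, limma adjusted p = 0.0460). Its parents gave 6.90 in C3H/HeJ, 6.98 in DBA/2J and 6.34 in A/J, against 6.44 in C57BL/6J. The call in BXD was lost with the Gapdh covariate (adjusted p = 0.0752), without the arrays with another organ's genes (0.0599) and among the lower title numbers (0.265). The call in BXH was lost with arrays centred on their medians (adjusted p = 0.0542), the erythroid covariate (0.0672), limma's trend option (0.0551) and among the lower title numbers (0.278). This last fit kept every BXH array and dropped only AXB and BXA arrays. Alas2 averaged 8.88 ± 0.90 in BXH and 7.97 ± 0.85 in BXD (difference 0.90, SE 0.29, limma adjusted p = 0.0617), which passed the threshold with dim probe sets left out (adjusted p = 0.0419) and with the brightest probe set per gene (adjusted p = 0.0399). Hmox2, the constitutive haem oxygenase, spanned 0.80 log2 units over all arrays, and none of its 4 comparisons was called.

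Of the 30 haem handling genes, 24 were measured. In BXD against AXB and BXA 2 were called higher, Blvra and Abcb10 (0.23, adjusted p = 0.0114), a mitochondrial inner membrane transporter needed for haem synthesis in red cells. These 2 of 24 stand beside the 3.93% of all probe sets called higher there, and 7.48% in either direction. The median difference of the list was 0.05, beside 0.00 over all genes. In BXH against AXB and BXA 1 of the 24 was called higher (Blvra), beside 332 of all 22327 probe sets. In BXH against BXD 1 of the 24 was called lower (Abcb10, -0.28, adjusted p = 0.0294), beside 595 of all 22327. Of 16 measured iron genes of 20, 3 were called higher in BXD than in AXB and BXA: Slc25a37, the mitochondrial iron importer mitoferrin-1 (0.18, adjusted p = 0.0321), and the hepcidin copies Hamp and Hamp2, which hybridisation separates poorly. In BXH against BXD, Ftl1, the ferritin light chain, was called higher (0.49, adjusted p = 0.0179) and Hamp2 lower. Of all 22327 probe sets, 538 were called higher there and 595 lower. Of 9 measured antioxidant genes of 10, which include Gclm and Nqo1, 0 were called in any comparison by limma.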

How the data were processed

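Heart RNA from 99 strains was hybridised to 1 array each, and total RNA was primed with oligo-dT, per the labels' protocols. The deposited values are on the log2 scale and cover 22416 probe sets (89 controls). GCOS and RMA are named without versions, per the submitters' processing notes. No genome build was stated, so RefSeq's table was used for names and gene order only, and coordinates are those of its own promoter windows. Of the probe sets, 17783 had 1 symbol, 284 several and 4349 none here.

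Strain names in the labels gave the panels. Each comparison of panels used lmFit and eBayes of limma 3.58.1, under R 4.3.3 (no covariate, no filter), with Benjamini-Hochberg adjustment over all 22327 probe sets, called at adjusted p under 0.05. In simulated data, 67 probe sets were shifted by 0.25 and 67 by 0.5 log2 units. Of these, 80.6% and 94.0% were recovered for BXD against AXB and BXA, 59.7% and 92.5% for BXH against AXB and BXA, 58.2% and 94.0% for BXH against BXD, and 49.3% and 91.0% for AXB against BXA. False calls numbered 9, 9, 8 and 2 in that order. The shifted probe sets were drawn at random, with normal values at each one's own SD. The shares do not carry over to Alad and Hmox1, whose panel differences had SEs from 0.23 to 0.36. Relations across strains used 100000 two-sided permutations, adjusted over 62 relations, with Python 3.11.15, numpy 2.4.6 and scipy 1.17.1. Another 10 planned relations, of Alad in all sets and Hmox1 in BXD, were not run because the values fall into separate ranges, a criterion (a gap of 0.5 log2 units) set after the data were seen. Arrays with another organ's genes were those with a list mean over 2 log2 units above its median. The number of arrays, not a depth, limits precision. Named genes are all member probe sets, the paralogs, up to 4 called genes per list and comparison, the 6 neighbours of Alad on each side and the 5 genes most like it in BXD and in the classical strains. Other named genes, such as those most like Hmox1, were chosen after their values were seen. The members, lists and tests were chosen with earlier results of these data known. Figures used matplotlib 3.10.9.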

Additional observations from a re-analysis of the deposited data

How the results depend on the processing

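Of 276 values recomputed under the alternatives for 58 reported values, 221 kept their direction and side of the threshold or stayed within the stated margin, 29 lost the threshold, 9 passed it only under the alternative, 17 counts moved by over 1.5 times and 0 changed direction. No paired analysis was possible because every array is of a different strain and has no partner in another panel. For BXD against AXB and BXA the 1669 called probe sets became 1099 with the brightest probe set of each gene, 608 with the Gapdh covariate, 764 without the arrays with another organ's genes, 665 among the lower title numbers and 232 among the upper ones. For BXH against AXB and BXA the 673 became 259 among the lower title numbers. For BXH against BXD the 1133 became 673 with the Gapdh covariate and 101 among the lower title numbers. Fewer probe sets or arrays enter some of these fits, and otherwise the cause was not tested. Of the relations, 5 were called, and 3 without the arrays with another organ's genes, 2 among the lower and 1 among the upper title numbers. The count of families above the parental midpoint depended on the probe set. For Fech in BXD it was 9 with 1418699_s_at, 14 with 1449181_at, 16 with 1418698_a_at and 5 with 1427696_at. With 1427696_at it was 4 in AXB and BXA and 1 in BXH, where 1418699_s_at gave 9 in each. For Cpox in BXH it was 3 with 1422493_at and 6 with 1422492_at. Fits without the arrays with another organ's genes and among the upper title numbers were not run for BXH, where too few BXH arrays remain. In the BXH comparisons, fits among the lower title numbers kept every BXH array and dropped only arrays of the other panels. They cannot separate title number from panel. Values near the floor (Hdhd3, 1427696_at, 1422492_at) can hide differences.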

Other observations

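CAST/EiJ, the wild-derived strain, stood apart at Uros, the enzyme that closes the porphyrin ring. Its value of 5.51 lay below all 28 classical strains, which ran from 6.21 to 7.33, and below every recombinant strain. Urod was 7.98, just above the classical range of 7.62 to 7.94, and Alas2 was 6.71, just below the classical range of 6.73 to 10.49. The other member probe sets of CAST/EiJ lay within the classical ranges. Alad was 7.42, close to C57BL/6J (7.37), Hmox1 was 6.47 and Blvrb 6.53. Of the 13 member probe sets only Uros and Urod lay outside the classical range, beside 21.0% of all probe sets in CAST/EiJ. Sequence differences under the probes were not examined. In B6cC3-1/KccJ all 13 member probe sets lay within the classical ranges, with 7.55 for Alad and 5.01 for Hmox1, while 6.37% of all probe sets lay outside. The CAST/EiJ array is among those with another organ's genes, and its part in these values was not tested. With 1 array for each strain there is no test.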
